A study of Mus musculus with 8 samples.

Results

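Germ cells of the testis make many mRNAs long before the proteins are needed, and the mRNAs wait in ribonucleoprotein particles until translation is allowed. The 10 genes described here encode proteins that package, store or release such mRNAs: the Y-box proteins *Ybx1*, *Ybx2* and *Ybx3*, the poly(A)-binding proteins *Pabpc1* and *Pabpc2*, the DAZ-family proteins *Dazl* and *Boll*, the translation initiation scaffold *Eif4g3*, the polyadenylation regulator *Cpeb1* and the RNA helicase *Ddx25*. They were taken by gene name from a table of 54532 genes, and the list was made with earlier results of these data known. All 10 were present once and passed the filter on low values in every comparison.

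As background, Y-box proteins carry a cold-shock domain and coat mRNA, which keeps it stable and out of ribosomes. Poly(A)-binding proteins cover the tail of an mRNA and join it to the cap through the eIF4G scaffold, which favours initiation. CPEB and DAZ-family proteins bind motifs in the 3′ part of chosen mRNAs and change their tail length or ribosome loading. In the mouse testis the protamine and transition protein mRNAs are the textbook case of storage, since they are made in round spermatids and translated days later.

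RNA was measured in spermatocytes of C57BL/6J mice with and without a germ-cell deletion of MFN2, a mitochondrial fusion protein. MFN2 WT mice were Mfn2 loxp/loxp without Cre by their labels, and MFN2 cKO mice were Mfn2 loxp/loxp; Stra8-Cre, in which exon 6 is removed by a Cre whose Stra8 promoter becomes active in male germ cells before meiosis. The study's methods also allow heterozygous floxed littermates as MFN2 WT. Pachytene (P) and leptotene/zygotene (L/Z) spermatocytes were taken at postnatal day (PD) 24 and PD 52 by sedimentation in a BSA gradient and judged by diameter and morphology, and each of the 8 groups had 1 library. Ages are those of the labels, and the study's text and a figure legend give a different day for the older mice in several places.

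The libraries held between 14340665 and 20379950 reads on genes. Levels are FPKM, the fragments on a gene divided by its length in kilobases and by a factor for the depth of the library. For *Mfn2*, the gene that was deleted, the ratio of MFN2 cKO to MFN2 WT was 0.513 in P and 0.418 in L/Z at PD 24, and 0.805 in P and 0.491 in L/Z at PD 52. This value is over all exons, and exon 6 was not measured by itself. The stage labels did not match all of their markers. Of 10 leptotene and zygotene genes, 7 to 9 had FPKM above 1, and their summed FPKM (50.7 to 119) was lower in the L/Z than in the P library of each of the 4 pairs, by little in MFN2 cKO at PD 24 (105.6 against 106.0). For round and elongating spermatids, 10 genes summed to more in L/Z than in P in each pair, from 185 (P, MFN2 cKO, PD 24) to 1863 (L/Z, MFN2 cKO, PD 52). Pachytene genes summed to between 666 and 1066, and were higher in P at PD 24 and higher in L/Z at PD 52. Markers of Sertoli cells (27.9 to 770 summed FPKM), Leydig cells (20.7 to 666), peritubular myoid cells (37.8 to 208) and macrophages (10.5 to 266) were present in every library. P and L/Z below are the names given by the labels, and in such bulk samples fewer cells of a type and less RNA per cell cannot be told apart.

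Promoter sequence was sought for all 10 genes, among which *Ybx1*, *Ybx2* and *Ybx3* varied together. RefSeq windows of 300 bases (250 before and 50 after a start site, build GRCm38.p6) were at hand for 8 of the 10 genes, in 11 windows, with *Pabpc1* and *Pabpc2* not matched. The search took 4 motifs on both strands, the Y-box CTGATTGG, its CCAAT box core ATTGG (which is also the end of the Y-box), the cyclic AMP response element TGACGTCA and the Myb element TAACGG. The full Y-box was found in *Boll* only, 53 bases upstream of the start, while 4.1% of all 32851 promoter windows hold it. The core was found in 5 of the 11 windows, each of another gene, and 37.4% of all windows hold it. The window of *Ybx1* had 3 copies and 1 of the 2 windows of *Ybx2* had 2, while the window of *Ybx3* and the other window of *Ybx2* held none of the 4 motifs. The other 2 motifs, held by 1.79% and 2.76% of all windows, were in none of the 11 windows. A match describes letters in a window and not a bound site. The matching windows of 4 genes, the DAZ-family pair and the 2 Y-box genes with a match, are shown 5′ to 3′ along the gene, with the matches in capitals.
Boll, chr1:55362679-55362978, minus strand: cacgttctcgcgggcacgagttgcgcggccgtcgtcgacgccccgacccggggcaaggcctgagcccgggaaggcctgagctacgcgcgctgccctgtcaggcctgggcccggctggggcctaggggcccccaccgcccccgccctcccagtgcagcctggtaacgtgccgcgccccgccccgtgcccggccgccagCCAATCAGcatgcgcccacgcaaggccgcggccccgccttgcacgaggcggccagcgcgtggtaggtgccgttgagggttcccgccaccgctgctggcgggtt
Dazl, chr17:50293571-50293870, minus strand: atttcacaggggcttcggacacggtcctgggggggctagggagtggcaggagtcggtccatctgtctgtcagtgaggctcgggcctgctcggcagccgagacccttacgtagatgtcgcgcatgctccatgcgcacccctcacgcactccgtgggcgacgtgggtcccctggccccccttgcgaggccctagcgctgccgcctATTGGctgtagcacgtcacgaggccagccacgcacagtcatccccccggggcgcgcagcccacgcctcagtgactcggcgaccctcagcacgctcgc
Ybx1, chr4:119294464-119294763, minus strand: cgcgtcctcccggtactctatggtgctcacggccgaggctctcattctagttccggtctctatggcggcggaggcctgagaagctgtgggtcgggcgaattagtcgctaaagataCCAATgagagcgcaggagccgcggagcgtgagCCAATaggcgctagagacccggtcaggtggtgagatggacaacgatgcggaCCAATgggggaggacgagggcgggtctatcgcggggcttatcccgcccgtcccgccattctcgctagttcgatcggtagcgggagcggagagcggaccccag
Ybx2, chr11:69935649-69935948, plus strand: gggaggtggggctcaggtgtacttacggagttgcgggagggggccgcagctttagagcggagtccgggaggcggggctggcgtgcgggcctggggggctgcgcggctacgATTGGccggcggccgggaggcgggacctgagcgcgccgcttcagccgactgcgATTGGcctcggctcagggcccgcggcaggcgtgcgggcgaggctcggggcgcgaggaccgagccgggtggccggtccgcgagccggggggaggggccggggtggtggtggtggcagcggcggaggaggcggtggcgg

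The 10 genes fell into an abundant and a less abundant set. By median FPKM over the 8 libraries the order was *Ybx2* (1185), *Ybx3* (728), *Ybx1* (630.2), *Pabpc1* (526), *Pabpc2* (332), *Ddx25* (82.4), *Eif4g3* (66.1), *Dazl* (46.9), *Boll* (35.6) and *Cpeb1* (4.61). *Ybx2* ranked between 4 and 17 among 22046 protein-coding genes, and *Cpeb1* between 5358 and 9971. Together the 10 genes took 1.03% to 1.32% of all reads. Only 2 steps in this order separated every library of one gene from every library of the next, *Pabpc2* over *Ddx25* and *Boll* over *Cpeb1*. Within libraries each of the first 6 genes exceeded the next in 8 of 8, whereas *Dazl* exceeded *Boll* in only 4 of 8. The deposited gene length joins all annotated exons, and the order depends on it. With the length of the longest coding transcript instead, an alternative chosen after the data were seen, the median was 1335 for *Ybx2*, 1222 for *Pabpc1*, 1209 for *Ybx3* and 979.8 for *Ybx1*, so that *Pabpc1* exceeded *Ybx1* in 8 of 8 libraries. With this length *Ybx2* exceeded *Ybx3* in 6 of 8 libraries, and *Ddx25* exceeded *Eif4g3* in 2 of 8. Ratios of a gene between libraries do not depend on its length.

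**Figure D1:**
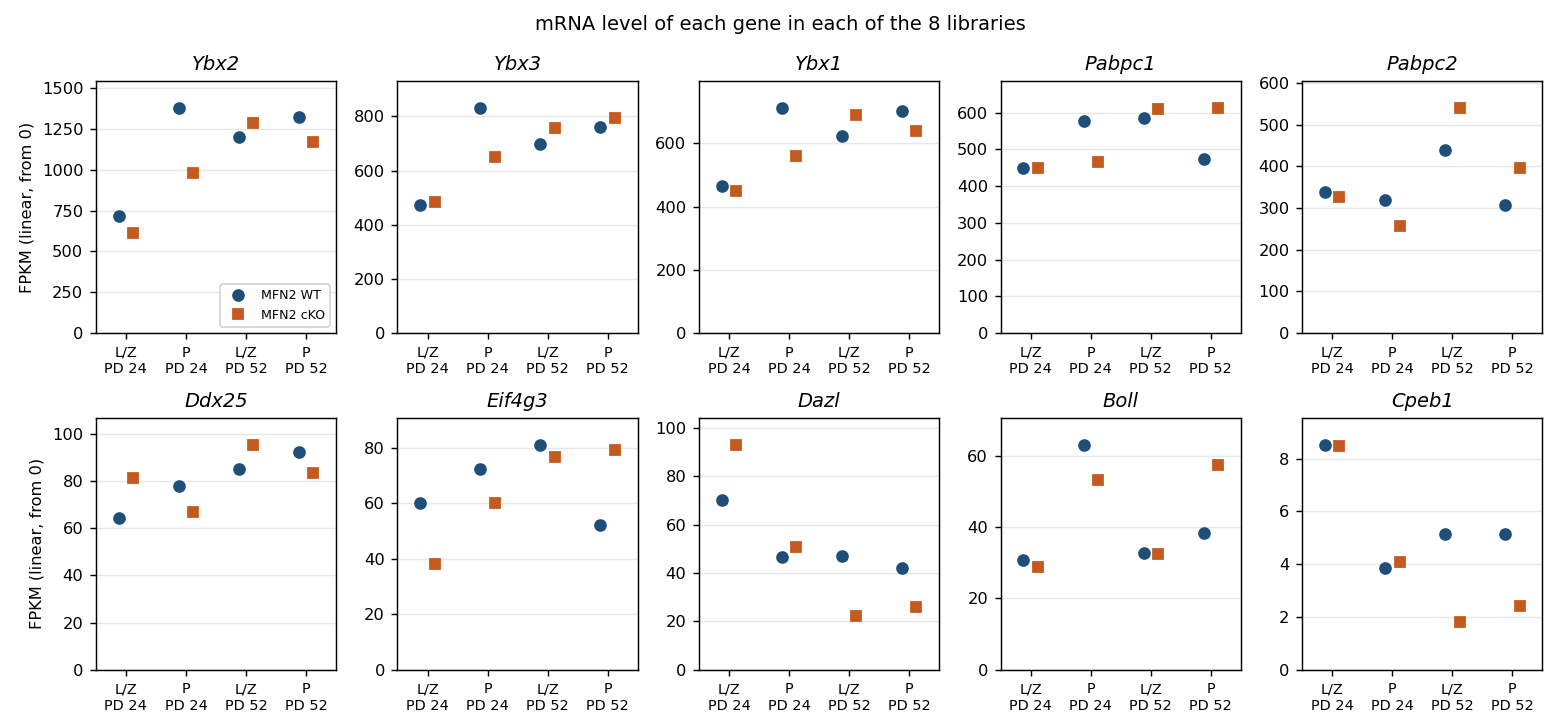
FPKM of each gene (linear axis from 0, a scale for each panel) in the 8 libraries, by stage and age on the x axis, with MFN2 WT as circles and MFN2 cKO as squares and 1 library a point. The 3 Y-box genes are lowest in both L/Z libraries at PD 24, *Boll* is highest in the P libraries, and *Dazl* and *Cpeb1* are lowest in the MFN2 cKO libraries at PD 52.

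*Ybx2*, the germ-cell Y-box protein also called MSY2, lies on chromosome 11 (69935796 to 69941605, plus strand; 9 exons in its longest coding transcript). Its FPKM in MFN2 WT was 717 in L/Z and 1379.7 in P at PD 24, and 1201 in L/Z and 1323 in P at PD 52. The MFN2 cKO libraries had 612 in L/Z and 984 in P at PD 24, and 1288 in L/Z and 1169 in P at PD 52. The 2 L/Z libraries at PD 24 were thus the lowest of the 8. *Ybx3* (MSY4; chromosome 6, 131364855 to 131388476) had 474 and 831 FPKM in MFN2 WT at PD 24 and 699 and 759 at PD 52, in L/Z and P. Its MFN2 cKO values were 486 and 651 at PD 24 and 757 and 795 at PD 52. *Ybx1*, the widely expressed Y-box protein (chromosome 4, 119277981 to 119294604), was also lowest in these 2 libraries. It had 466 and 712 FPKM in MFN2 WT L/Z and P at PD 24 and 623 and 704 at PD 52, and the MFN2 cKO libraries had 449.6 and 560.5, then 690.1 and 638. Of the 50-base windows of its longest coding transcript, 25.1% also occur in 6 other genes, among them Gm11560 and Ybx1-ps2, so its level is uncertain where reads were shared. For *Ybx2* and *Ybx3* no window was shared.

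Over the 8 libraries, log2(FPKM + 1) of *Ybx2* and *Ybx1* had a Pearson correlation of 0.988, *Ybx3* and *Ybx1* of 0.968 and *Ybx3* and *Ybx2* of 0.963. These values describe 8 libraries that share their scaling, and carry no test. The 3 genes did not keep a fixed ratio. *Ybx2* over *Ybx1* ranged from 1.36 in the MFN2 cKO L/Z library at PD 24 to 1.94 in the MFN2 WT P library at PD 24, and was lower in MFN2 cKO in 4 of 4 pairs. At PD 24 the counting intervals of this ratio were apart (1.34 to 1.39 against 1.51 to 1.57 in L/Z, and 1.73 to 1.78 against 1.91 to 1.97 in P). At PD 52 they met or overlapped. *Ybx2* over *Ybx3* was also lower in MFN2 cKO in 4 of 4 pairs, with separate intervals in 3 of them. Markers of Leydig cells and macrophages were higher in MFN2 cKO in the same 4 pairs. Summed FPKM of 8 Leydig genes was 36.8 in MFN2 WT and 207 in MFN2 cKO in L/Z and 20.7 and 141 in P at PD 24, and 28.2 and 102 in L/Z and 261 and 666 in P at PD 52. For 8 macrophage genes these sums were 56.5 and 129, 24.2 and 48.3, 39.5 and 266, and 10.5 and 23.2. Other lists went both ways. Sertoli sums were lower in MFN2 cKO in L/Z at PD 24 (240.3 against 268.2) and in P at PD 52 (286.8 against 602.1), and higher in the other pairs. Peritubular myoid sums were lower in both P pairs (37.85 against 49.14 at PD 24, 42.85 against 59.47 at PD 52) and higher in both L/Z pairs. No gene of these lists was at 0, and their part in these ratios was not tested. The counting intervals are 95% exact binomial (Clopper-Pearson) intervals on the reads of 1 library and cover counting error only, because amplified reads that carry no molecular identifier may copy 1 molecule.

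*Pabpc1*, the general cytoplasmic poly(A)-binding protein (chromosome 15, 36595661 to 36609668), was the steadiest of the 10, with a highest to lowest ratio of 1.37. It had 451 and 578 FPKM in MFN2 WT L/Z and P at PD 24 and 586 and 475 at PD 52. The MFN2 cKO values were 448 and 466, then 611 and 613, so both L/Z libraries at PD 24 were lowest. Of its windows 20.7% occur in 3 other genes. *Pabpc2*, a testis poly(A)-binding protein whose gene has 1 exon (chromosome 18, 39773497 to 39776082), shared none, also with *Pabpc1*. Its FPKM was 338 and 319 in MFN2 WT L/Z and P at PD 24 and 439 and 306 at PD 52, and its MFN2 cKO values were 325 and 257, then 539.6 and 396. L/Z exceeded P in each of the 4 pairs. Its ratio to *Pabpc1* was 0.75 in both MFN2 WT L/Z libraries, 0.73 and 0.88 in the MFN2 cKO L/Z libraries at PD 24 and PD 52, 0.55 in both P libraries at PD 24, and 0.64 (MFN2 WT) and 0.65 (MFN2 cKO) in P at PD 52. The P libraries were lower in 4 of 4 pairs, with separate counting intervals in all 4. MFN2 WT and MFN2 cKO differed beyond these intervals in 1 pair, L/Z at PD 52. With coding lengths the ratio ran from 0.24 to 0.38.

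*Dazl* and *Boll*, related RNA-binding proteins of the DAZ family, went different ways. *Dazl* (chromosome 17, 50279395 to 50293636) acts from the embryonic germ cell onward, and *Boll* (chromosome 1, 55248658 to 55363469) acts in meiotic and later male germ cells. *Dazl* had 70.2 and 46.6 FPKM in MFN2 WT L/Z and P at PD 24 and 47.1 and 41.9 at PD 52. The MFN2 cKO libraries had 93.0 and 50.6, then 22.0 and 26.1. The MFN2 cKO libraries were thus above MFN2 WT in both pairs at PD 24 and below it in both pairs at PD 52. *Boll* had 30.7 and 63.0 FPKM in MFN2 WT L/Z and P at PD 24 and 32.8 and 38.3 at PD 52, and its MFN2 cKO values were 28.8 and 53.2, then 32.5 and 57.4. All 4 P libraries of *Boll* were above all 4 L/Z libraries.

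The ratio of *Boll* to *Dazl* ran from 0.31 to 2.20 over the libraries. In L/Z and P it was 0.44 and 1.35 in MFN2 WT at PD 24, and 0.31 and 1.05 in MFN2 cKO. At PD 52 it was 0.70 and 0.91 in MFN2 WT, and 1.48 and 2.20 in MFN2 cKO. The P library was higher in 4 of 4 pairs, and MFN2 cKO was lower than MFN2 WT in both pairs at PD 24 and higher in both at PD 52, each time beyond the counting intervals. A ratio within libraries shows that the genes differed unequally and not which of them did.

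**Figure D2:**
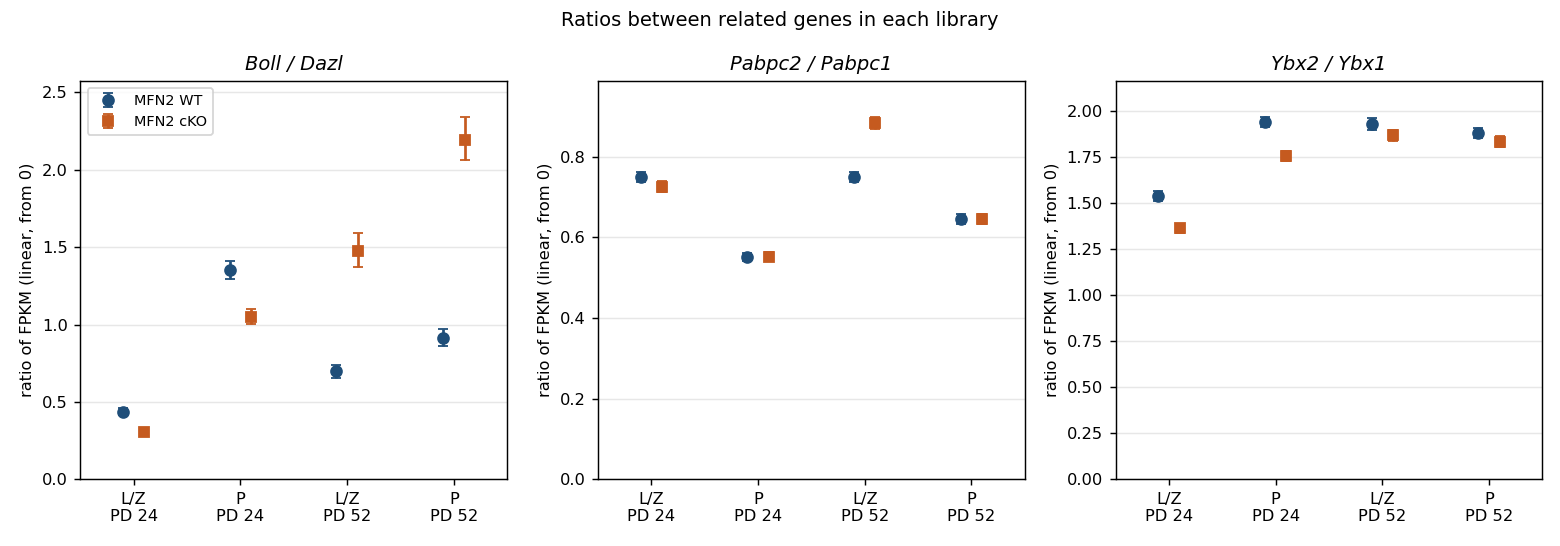
Ratios of FPKM (linear axes from 0) of *Boll* to *Dazl*, *Pabpc2* to *Pabpc1* and *Ybx2* to *Ybx1* in each library, with MFN2 WT as circles, MFN2 cKO as squares and 95% counting intervals as bars. *Boll* to *Dazl* is highest, at 2.20, in P of MFN2 cKO at PD 52, and *Pabpc2* to *Pabpc1* is lower in P than in L/Z in each pair.

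*Eif4g3*, an eIF4G scaffold that male germ cells need to leave meiotic prophase (chromosome 4, 137993022 to 138208508; 34 exons), had no order that held over pairs. Its FPKM was 60.1 and 72.2 in MFN2 WT L/Z and P at PD 24 and 81.1 and 52.1 at PD 52. The MFN2 cKO values were 38.1 and 60.0, then 76.9 and 79.2. It was lower in MFN2 cKO in 3 pairs, with a log2 difference of -0.64 in L/Z at PD 24, and higher by 0.60 in P at PD 52. *Ddx25*, the gonadotropin-regulated testis helicase needed for spermatid development (chromosome 9, 35536647 to 35558528), stayed within a ratio of 1.48. It had 64.5 and 77.9 FPKM in MFN2 WT L/Z and P at PD 24 and 85.2 and 92.1 at PD 52, and its MFN2 cKO values were 81.2 and 66.7, then 95.4 and 83.6. Each library at PD 52 was above its counterpart at PD 24.

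*Cpeb1*, which binds the cytoplasmic polyadenylation element (chromosome 7, 81347026 to 81455465), was the least abundant, with 111 to 675 reads. It had 8.52 and 3.87 FPKM in MFN2 WT L/Z and P at PD 24 and 5.13 and 5.14 at PD 52. The MFN2 cKO libraries had 8.46 and 4.08, then 1.81 and 2.40. At PD 24 the genotypes thus differed by less than the counting error in both stages, while at PD 52 the ratio of MFN2 cKO to MFN2 WT was 0.353 in L/Z and 0.466 in P. *Cpeb1* varied with *Dazl* (Pearson correlation 0.95 over the 8 libraries), and its ratio to *Dazl* stayed between 0.081 and 0.12.

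The MFN2 cKO libraries were next compared with the MFN2 WT library of the same stage and age. Genes that differed at least 2-fold were counted, on the scale of log2(FPKM + 1), which understates the change of low genes. In P at PD 24, 8.08% of genes differed by this much and 0 of the 10 members, with 8 of them lower and a median of -0.29 against -0.10 for all genes. In L/Z at PD 24, 10.5% of genes did and 0 members, with 7 lower. The member farthest from 0 was *Ybx2* in P at PD 24, at -0.49 (95% counting interval -0.51 to -0.47), and *Eif4g3* in L/Z, at -0.64 (-0.68 to -0.60). In P at PD 52, 11.0% of genes did and 0 members, with 5 lower and 5 higher. In L/Z at PD 52, 7.95% of genes did and 2 of the 10 members, *Dazl* and *Cpeb1*, both lower. *Dazl* differed by -1.06 (-1.16 to -0.97, 1230 against 2691 reads) and *Cpeb1* by -1.12 (-1.34 to -0.90, 111 against 322 reads). In P at PD 52 they differed by -0.66 (-0.75 to -0.57) and -0.85 (-1.07 to -0.64). At PD 24 *Dazl* was higher in MFN2 cKO by 0.12 (0.05 to 0.18) in P and 0.40 (0.35 to 0.46) in L/Z, and the intervals of *Cpeb1* included 0. With 1 library a group none of these differences has a replicate check.

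**Figure D3:**
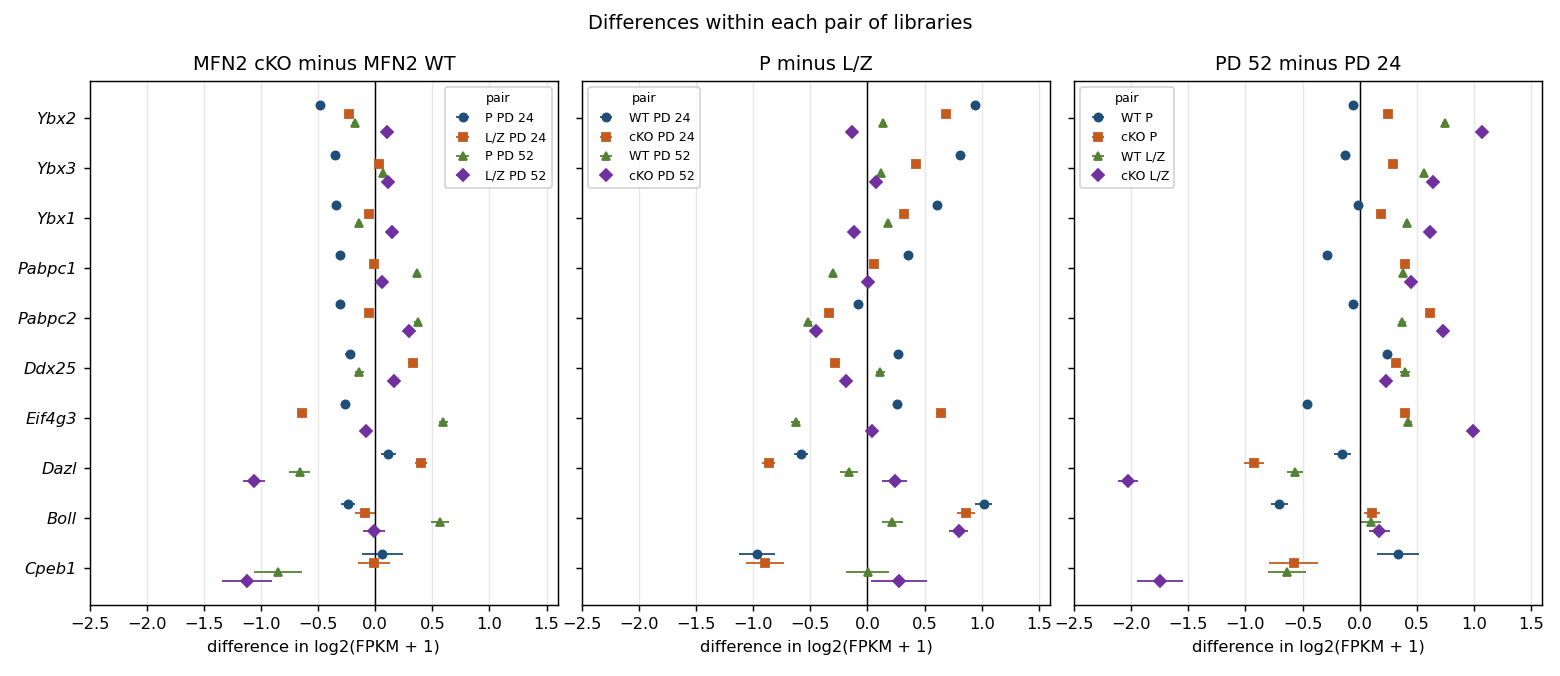
Difference in log2(FPKM + 1) of each gene between the libraries of each pair, for genotype, stage and age, with 95% counting intervals as bars where they exceed the symbol and 4 pairs as 4 symbols. *Dazl* lies at -2.03 and *Cpeb1* at -1.75 between the MFN2 cKO L/Z libraries of the 2 ages, and the 4 stage differences of *Boll* are all above 0.

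Across the 4 pairs no member passed the test for a genotype effect. With limma's moderated test on log2(FPKM + 1), pairs as a block and Benjamini-Hochberg adjustment over 21175 genes, 0 of the 10 members were called, when 0.132% of all genes rose and 0.00472% fell in MFN2 cKO. No member had an unadjusted p under 0.05 either, by this test or by limma-voom on the recovered reads. Leydig and macrophage marker sums were higher in MFN2 cKO in all 4 pairs, as given above, and their part in the estimates was not tested. The largest estimates were those of *Cpeb1* (-0.48, SE 0.24, limma adjusted p = 0.761, lower in 3 of 4 pairs) and *Dazl* (-0.30, SE 0.27, limma adjusted p = 0.884, lower in 2 of 4). The 95% interval of the difference, for each gene by itself, was -0.40 to 0.33 for *Ybx3*, -0.37 to 0.42 for *Pabpc1* and -0.36 to 0.42 for *Ddx25*. Differences within these bounds are not excluded, and larger ones can also go uncalled after adjustment over all genes. *Mfn2* itself, lower in 4 of 4 pairs by a mean of -0.87 (SE 0.19), did not pass the adjustment (limma adjusted p = 0.275). With each pair left out in turn, limma called 0 genes of the table, and 952 to 1781 had an unadjusted p under 0.05.

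The change with genotype was then compared between the ages. The interaction called 0.0142% of all genes and 0 of the 10 members. *Dazl* and *Cpeb1* had an unadjusted limma p under 0.05 with each setting tried, all on the same 8 libraries. In the main fit 2641 of all 21175 genes had one too. The change at PD 52 minus that at PD 24 was -1.12 (SE 0.32, limma adjusted p = 0.25) for *Dazl* and -1.02 (SE 0.26, limma adjusted p = 0.21) for *Cpeb1*. Both pairs of *Pabpc2* were lower in MFN2 cKO at PD 24 and higher at PD 52, with an interaction of 0.52 (SE 0.32, limma adjusted p = 0.572). Between the stages the interaction called 0.0% of all genes (876 at an unadjusted p under 0.05) and 0 members.

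Markers moved with *Dazl* and *Cpeb1*. The summed FPKM of 10 spermatogonial genes was 142 and 107 in MFN2 WT L/Z and P at PD 24 and 103 and 118 at PD 52. The MFN2 cKO sums were 190.2 and 118, then 47.7 and 57.5. Of these genes 8 or 9 were above 1 FPKM in each library, and Nanos2 was at 0 in 4 libraries. The leptotene and zygotene genes were also lowest in the MFN2 cKO L/Z (50.7) and P (79.9) libraries at PD 52. The part of these markers in the levels of *Dazl* and *Cpeb1* was not tested. The genes most like *Dazl* over the 8 libraries, among 6683 protein-coding genes that exceed 10 FPKM in some library, were the replication genes Lig1 (Pearson correlation 0.988) and Mcm6 (0.986). Those most like *Cpeb1* were Stra8 (0.984), the retinoic acid response gene of meiotic entry that is also among the spermatogonial markers, and Grk2 (0.982).

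**Figure D4:**
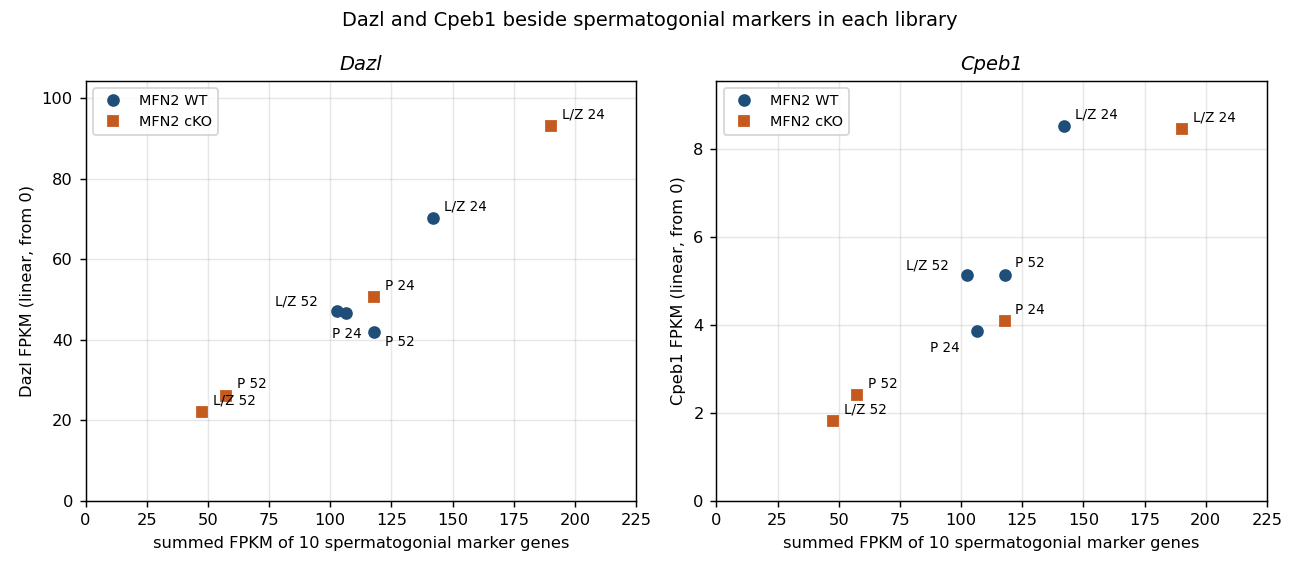
FPKM of *Dazl* and *Cpeb1* (y axes from 0) against the summed FPKM of 10 spermatogonial marker genes (x axis) in the 8 libraries, labelled by stage and age, with MFN2 WT as circles and MFN2 cKO as squares. Both genes and the marker sum are lowest in the 2 MFN2 cKO libraries at PD 52, at 47.7 and 57.5 summed FPKM.

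Between the stages 1 member rose. *Boll* was higher in P by 0.72 (SE 0.18, limma adjusted p = 0.0236, 4 of 4 pairs), when 12.4% of all genes rose and 16.0% fell in P, so 1 call in 10 genes is no more than the background. The differences of *Boll* were 1.02 (0.94 to 1.09) in MFN2 WT and 0.86 (0.78 to 0.95) in MFN2 cKO at PD 24, and 0.22 (0.13 to 0.31) and 0.80 (0.71 to 0.88) at PD 52. The call was lost without the MFN2 WT pair at PD 24 (0.63, limma adjusted p = 0.127) and without either MFN2 cKO pair (limma adjusted p = 0.0889 and 0.114). *Ybx3* was higher in P in 4 of 4 pairs (0.36, SE 0.19, limma adjusted p = 0.189) and *Pabpc2* lower in 4 of 4 (-0.35, SE 0.16, limma adjusted p = 0.145), and neither passed. *Dazl* was lower in P in 3 of 4 pairs (-0.34, SE 0.21, limma adjusted p = 0.249). Between paired libraries, at least 2-fold differences between P and L/Z were seen at PD 24 in 16.3% (MFN2 WT) and 20.0% (MFN2 cKO) of genes, and at PD 52 in 20.2% and 24.7%. Among the members *Boll* in MFN2 WT at PD 24 was the only such difference. Summed Sertoli markers were higher in P in each of the 4 pairs, at PD 24 with 631 against 268 FPKM in MFN2 WT and 770 against 240.3 in MFN2 cKO, and their part in the *Boll* difference was not tested.

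At PD 52 against PD 24, no member was called by limma, although 11.9% of all genes rose and 5.41% fell. The unadjusted p was under 0.05 for 4 members, *Dazl*, *Ybx2*, *Ddx25* and *Pabpc2*, by limma and by limma-voom. It was also under 0.05 for 7953 of all 21175 genes by limma and 8208 by limma-voom, so 4 of 10 is near the background. *Dazl* was lower at PD 52 in 4 of 4 pairs, by a mean of -0.92 (SE 0.30, limma adjusted p = 0.0839). Its differences ran from -0.15 in MFN2 WT P to -2.03 (-2.12 to -1.94) in MFN2 cKO L/Z. *Ybx2* was higher by 0.50 (SE 0.19, limma adjusted p = 0.114), *Pabpc2* by 0.42 (SE 0.15, limma adjusted p = 0.105) and *Ddx25* by 0.30 (SE 0.12, limma adjusted p = 0.119), of which *Ddx25* was higher in 4 of 4 pairs. Without the MFN2 WT P pair, *Pabpc1*, *Pabpc2* and *Ybx3* rose at PD 52 by 0.41, 0.57 and 0.50 (limma adjusted p = 0.0385, 0.0382 and 0.0423). In that setting 3937 of all 21175 genes were called, of which 2629 rose. When any other pair was left out, 0 genes were called. At least 2-fold differences with age were seen in 14.6% of genes in MFN2 WT P, 18.9% in MFN2 cKO P, 13.3% in MFN2 WT L/Z and 31.5% in MFN2 cKO L/Z. Members passed this size in MFN2 cKO L/Z only, where *Ybx2* was higher (1.07) and *Dazl* and *Cpeb1* lower (-2.03 and -1.75). The genotype, stage and age comparisons use the same 8 libraries and are not independent of each other.

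**Figure D5:**
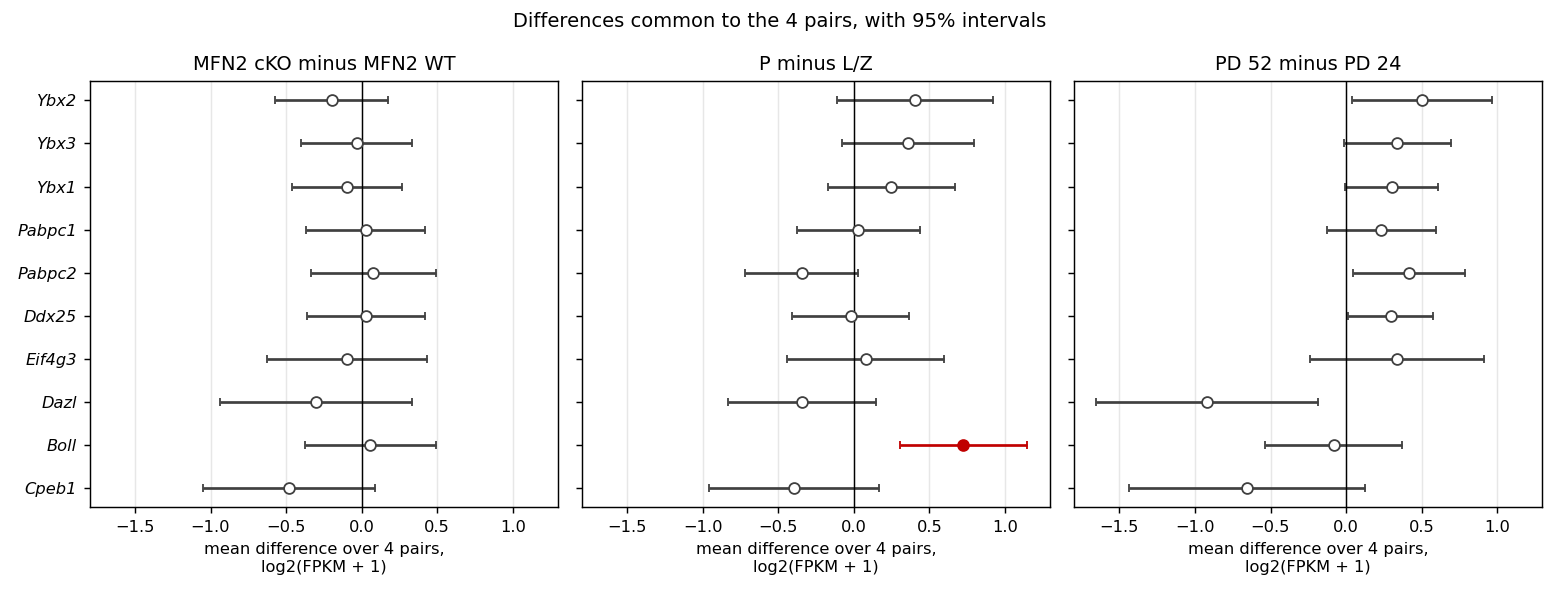
Mean difference over the 4 pairs in log2(FPKM + 1) for genotype, stage and age, with 95% intervals from limma, filled where the adjusted p was under 0.05 and open otherwise. *Boll* between the stages (0.72) is the only filled point among the 10 genes.

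The other members' closest genes were again given by their correlation over the 8 libraries. *Ybx1* and *Ybx3* shared Wdr20rt (0.982 and 0.992), followed by Actr1a (0.982) for *Ybx1* and Sept12 (0.982) for *Ybx3*, and *Ybx2* had Zkscan6 (0.986) and Comp (0.974). For *Boll* they were Kif19a (0.992) and Kcnj9 (0.989), for *Pabpc1* Msl1 (0.987) and Zc3h14 (0.98), and for *Pabpc2* Ttc34 (0.985) and Cir1 (0.982). *Eif4g3* was closest to Ttll5 (0.996) and Hydin (0.99), and *Ddx25* to Tcp1 (0.992) and Cep72 (0.968). These are descriptions over 8 libraries and say nothing of shared control.

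Of 78 other genes of mRNA storage and translation in 7 roles, 74 were tested. None was called for genotype (median -0.06, and -0.04 for all genes), where 0.132% of all genes rose and 0.00472% fell. In P 13 rose (17.6%, and 12.4% of all genes) and 12 fell (16.2%, and 16.0% of all genes), with a median of 0.04 against -0.04 for all genes. These shares are near those of all genes. At PD 52 5 rose (6.76%, and 11.9% of all genes) and 8 fell (10.8%, and 5.41% of all genes), with a median of -0.22 against 0.0048. These calls were not kept without some pairs. For stage, limma called 0 genes of the whole table without the MFN2 WT pair at PD 24 or the MFN2 cKO pair at PD 52. For age it called 0 when any pair other than MFN2 WT P was left out. Fitted over protein-coding genes only, 7 genes of the list rose and 11 fell at PD 52. Of all 14059 coding genes 1732 rose and 1563 fell, with a median of -0.113. In P the largest rises of each role were in Adad2 (1.85, SE 0.17), a germ-cell double-stranded RNA binder, Edc4 (1.40, SE 0.18), a scaffold of decapping, Paip1 (1.32, SE 0.21), a partner of poly(A)-binding protein, Dazap1 (0.97, SE 0.16), Eif4a2 (0.88, SE 0.16) and the polyadenylation factor Cpsf4 (0.56, SE 0.16). The largest falls in P were in Samd4 (-1.31, SE 0.19), Paip2b (-0.81, SE 0.14), which inhibits poly(A)-binding protein, Lin28a (-0.78, SE 0.16), a cold-shock protein of spermatogonia, Lsm14a (-0.76, SE 0.15), Eif4ebp1 (-0.63, SE 0.18), an inhibitor of cap binding, Adad1 (-0.61, SE 0.15) and Papolb (-0.52, SE 0.16), the testis cytoplasmic poly(A) polymerase.

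With age, the largest rises of each role were in Samd4 (1.93, SE 0.48), Carhsp1 (0.78, SE 0.21), a cold-shock protein, Paip2 (0.58, SE 0.14), Adad1 (0.56, SE 0.12) and Papolb (0.55, SE 0.14). The largest falls were in the helicase Ddx3x (-1.33, SE 0.14), Pabpc4 (-1.07, SE 0.28), a further poly(A)-binding protein, Zfp36l2 (-0.88, SE 0.14), which promotes mRNA decay, and Eif4a2 (-0.64, SE 0.13). Of the 5 that rose at PD 52, Samd4, Paip2, Adad1 and Papolb also fell in P, and the spermatid marker sums had the same directions (higher in L/Z in 4 of 4 pairs and higher at PD 52 in each of the 4 groups).

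A further list held 15 mRNAs that these proteins are known to bind or store, none of them among the spermatid markers above. In P 8 fell and 1 rose, with a median of -1.44 against -0.04 for all genes, of which 16.0% fell and 12.4% rose. At PD 52 9 rose and 0 fell, with a median of 2.32 against 0.0048 for all genes, of which 11.9% rose and 5.41% fell. With 1 pair left out, between 0 and 6 fell in P and between 0 and 10 rose at PD 52. None was called for genotype, by limma or limma-voom, with a median of -0.81 against -0.04 for all genes. Prm1, protamine 1, had 424 and 218 FPKM in MFN2 WT L/Z and P at PD 24, and 9.48 and 3.30 in MFN2 cKO. At PD 52 it had 2081 and 1120.0 in MFN2 WT and 4717 and 384 in MFN2 cKO. So MFN2 cKO was lower in 3 pairs and higher in L/Z at PD 52, and Prm2, Tnp1 and Tnp2 had the same order. The falls in P were those of Tnp1 (-2.02, SE 0.43), Prm1 (-1.69, SE 0.44), Smcp (-1.67, SE 0.22), Prm2 (-1.67, SE 0.41), Odf1 (-1.64, SE 0.23), Akap4 (-1.61, SE 0.22), Gapdhs (-1.58, SE 0.21) and Pgk2 (-0.88, SE 0.19). Tnp2 (-1.44, SE 0.47) did not pass. At PD 52 the rises ran from 0.49 (Ldhc, SE 0.07) to 5.40 (Prm2, SE 1.00), and besides these were Prm1, Tnp1, Smcp, Akap4, Gapdhs, Odf1 and Pgk2. Sycp3, which encodes an axial element protein of meiotic chromosomes and is bound by DAZL, rose in P (0.71, SE 0.19), and Sycp1 (0.07, SE 0.15), Tex19.1 (0.18, SE 0.24), Hspa2 (0.31, SE 0.18) and Acrbp (-0.29, SE 0.16) did not pass. Summed spermatid markers ran from 185 to 1863 FPKM over these libraries, and their part in the client changes was not tested. Over the same libraries *Ybx2*, whose protein stores protamine mRNA, stayed within a ratio of 2.25.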

How the data were processed

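RNA was measured in 8 libraries of mouse spermatocytes, 1 for each combination of genotype, stage and age by the labels, with between 14340665 and 20379950 reads on genes. Libraries were made with a NEBNext kit, sequenced as paired-end reads of 150 bases and turned by the authors with Novomagic into the deposited FPKM values. The aligner and build behind the FPKM values are not given in the sources used here. The submitters' processing notes list CASAVA 1.4, Bowtie 0.12.2 and builds mm8 and mm9, while 98.1% of the deposited genes have the coordinates of GENCODE mouse release 21 on GRCm38, so coordinates are given on GRCm38. The deposited gene length, in bases, joins all annotated exons. FPKM times gene length, divided by a factor fitted for each library, gave whole reads for 100% of values, within 0.001 of a read. These reads were used for counting intervals and limma-voom.

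The difference within a pair of libraries was taken in log2(FPKM + 1), over genes above 1 FPKM in either library. Effects common to 4 pairs were fitted with limma 3.58.1 in R 4.3.3 (moderated test, trended variance, pair as a block, 3 residual degrees of freedom) over 21175 genes above 1 FPKM in any library, with Benjamini-Hochberg adjustment and calls at an adjusted p under 0.05. Interactions had 2 residual degrees of freedom. The labels do not say that libraries come from separate animals or cultures, and p-values measure the spread between these libraries, with the pairs of different stage or age standing in for replicates. The fits were also run on simulated reads with the same change planted in all 4 pairs, which does not show how they do where pairs differ. Correlations are over log2(FPKM + 1) in 8 libraries. Gene models, the shared 50-base windows and promoters came from the annotation and RefSeq tables, with Python 3.11.15, pandas 2.3.3, scipy 1.17.1 and matplotlib 3.10.9.

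The members and the lists of other genes and markers were chosen with earlier results of these data known. Named genes were the members, *Mfn2*, the called gene with the largest rise and fall in each role of the wider list, all genes of the list of stored mRNAs, and the 2 protein-coding genes most correlated with each member. The alternatives were another pseudocount (0.1), no filter, protein-coding genes only, the libraries scaled once more by median of ratios, limma-voom, no pair term and each pair left out. The coding-transcript length and the alternatives for stage and age within pairs were chosen after seeing the data.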

Additional observations from a re-analysis of the deposited data

How the results depend on the processing

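Of 240 effects and interactions of the members under alternatives that keep all pairs, 234 kept direction and side of the threshold, and of 120 without 1 pair 102 did. The causes of the other changes were not tested. Under the further scaling 4 small values changed sign: the genotype effect of *Ybx3* (0.0011), the stage effects of *Pabpc1* (-0.062) and *Eif4g3* (-0.010) and the genotype by age interaction of *Ddx25* (0.033). With each pair left out, genotype effects ran from -0.082 to 0.073 for *Ybx3*, -0.086 to 0.14 for *Pabpc1*, -0.021 to 0.20 for *Pabpc2*, -0.11 to 0.16 for *Boll*, -0.33 to 0.085 for *Eif4g3* and -0.067 to 0.12 for *Ddx25*. Stage effects ran from -0.080 to 0.14 for *Pabpc1*, -0.11 to 0.32 for *Eif4g3* and -0.12 to 0.064 for *Ddx25*, and the age effect of *Boll* from -0.17 to 0.12. The stage call of *Boll* was also lost with no filter (limma adjusted p = 0.0606) and with no pair term (limma adjusted p = 0.0571).

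Counts of called genes depended on the setting. For genotype limma-voom called 114 genes, no filter 0, no pair term 3, protein-coding genes 71 and a pseudocount of 0.1 called 7, and without 1 pair 0 were called (lowest 0, highest 0). For stage no filter called 3010 and no pair term 1145, and without 1 pair between 0 and 5000. For age these were 791, 1 and between 0 and 3937. For the genotype by age interaction the further scaling and no filter called 0 (2767 and 3316 at an unadjusted p under 0.05) and a pseudocount of 0.1 called 74.

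The percent of genes differing at least 2-fold between MFN2 cKO and MFN2 WT was, with a pseudocount of 0.1, no filter and protein-coding genes only in turn, 13.9, 4.07 and 5.31 in P at PD 24, 17.7, 5.49 and 6.45 in L/Z at PD 24, 19.3, 5.71 and 6.38 in P at PD 52, and 15.0, 4.15 and 4.8 in L/Z at PD 52. Of 240 pair differences of the members under another pseudocount or scaling, 158 stayed within their counting interval. *Cpeb1*, with 111 to 675 reads, is the member that depth limits most, and with 1 library a group no within-pair difference has a replicate check.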
